A study of Danio rerio with 12 samples.

Results

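Gene expression was compared between 3 arrays of whole zebrafish larvae in which cyp1a alone was high and 3 arrays in which neither cyp1a nor cyp19a1b was high. The 6 arrays were chosen by marker signal from the 12 of the series, not by title. An array counted as high for cyp1a above a signal of 5000, and as high for cyp19a1b above a signal of 150. The arrays with cyp1a alone high, called the cyp1a-high arrays here, are titled TCDD 1, E2 2 and E2+TCDD 2. Those with neither high, called the neither-high arrays, are titled DMSO 1, DMSO 2 and TCDD 2. Titles and markers disagreed in 3 of these 6 arrays (E2 2, TCDD 2 and E2+TCDD 2) and in 6 of all 12. An array's title therefore says what it was labelled as, and its marker state is no record of what the larvae received. Every p-value below concerns an association with marker state in these arrays, and not an exposure.

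All larvae were wild type and were collected at 96 hours post fertilisation (hpf) in pools of about 30, so each array measures the RNA of a pool and of all tissues together. By label, the medium held 0.1% DMSO as the solvent control, 0.1 µM 17beta-estradiol (E2), 1 nM of the dioxin TCDD, or both compounds, added in DMSO between 72 and 96 hpf. In the description field each array has a letter and a number, which give 3 blocks of 4 arrays: letter C, letter B with the same number series, and letter B with a second, later number series. Each block holds 1 cyp1a-high and 1 neither-high array, so the comparison consisted of 3 pairs. They are DMSO 1 with TCDD 1 (the C pair), DMSO 2 with E2 2 (the first B pair) and TCDD 2 with E2+TCDD 2 (the second B pair). Markers matched titles on both sides of a pair in the C pair alone, and both titles of the second B pair contain TCDD. The arrays titled DMSO 1 and DMSO 2 carry the same number, and so do those titled TCDD 1 and E2 2. Nothing in the labels says whether arrays that share a number came from 1 RNA, so n = 3 counts arrays and may stand for fewer pools, and part of the spread behind the p-values may be technical.

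The aryl hydrocarbon receptor (AHR) is a transcription factor that is activated by dioxins and other planar aromatic ligands, pairs with ARNT, and binds dioxin response elements near its target genes. Its best known targets are the cyp1 genes, whose enzymes oxidise aromatic compounds, and the repressors AHRR and TIPARP, which limit its activity. In zebrafish embryos and larvae, Ahr2 mediates dioxin toxicity, which is known for its effects on the heart, the jaw cartilage and regenerating fins. The gene cyp19a1b encodes brain aromatase and is induced through estrogen receptors in radial glia.

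The marker signals chose the arrays and are given as a description only. In the order C pair, first B pair and second B pair, which is kept throughout, cyp1a was 381.6, 329.4 and 323.8 in the neither-high arrays. It was 21109.4, 21022.5 and 20170.0 in the cyp1a-high arrays, a mean difference of 5.85 on the log2 scale. The signal of cyp19a1b was 46.3, 50.2 and 52.1 in the neither-high arrays and 70, 45.7 and 36.1 in the cyp1a-high arrays. Over all 12 arrays, the lowest cyp1a signal above the threshold was 20170.0 and the highest below it was 414.7, a ratio of 48.6. For cyp19a1b these values were 255.9 and 70, a ratio of 3.65. The plot of both markers shows 4 separate corners with 3 arrays in each. A probe set of the same cluster as cyp1a that is annotated to mpx was at 40.3, 29.7 and 5.4 and at 1203.5, 965.2 and 803.8. The cluster's other probe sets annotated to mpx showed no such rise. The brightest of them was at 95.9, 174.1 and 157.0 and at 110.7, 96.9 and 141.7. All 8 probe sets of the marker clusters were kept out of every test.

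**Figure D1:**
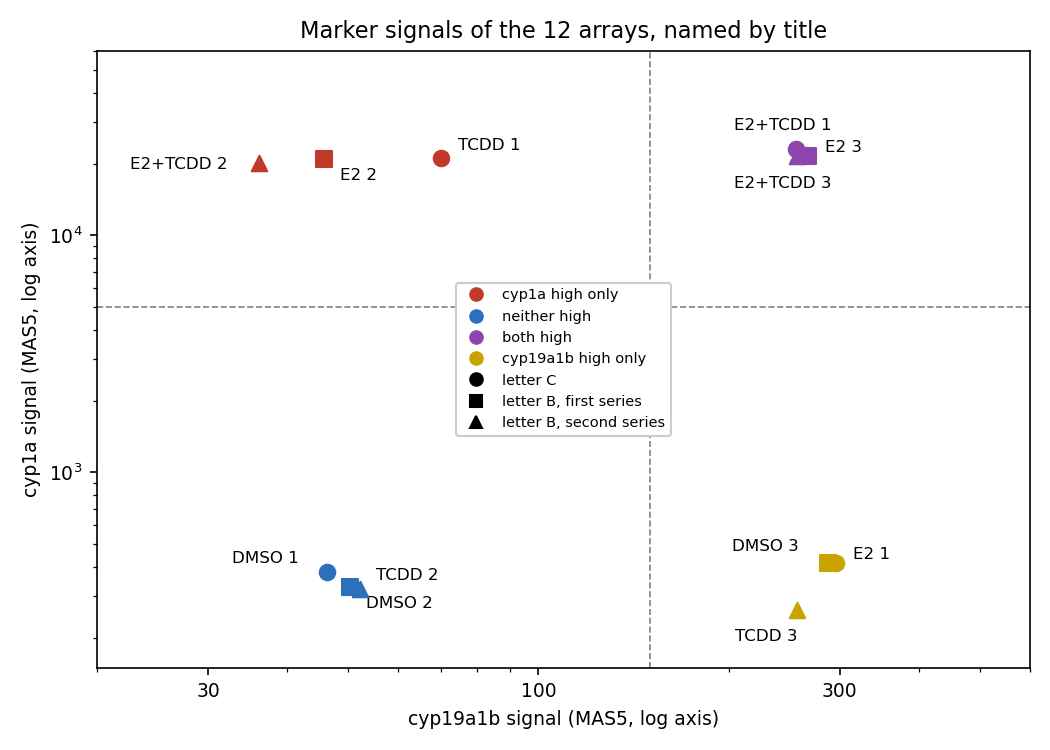
Signal of cyp1a against signal of cyp19a1b in the 12 arrays, both axes logarithmic, with the thresholds as dashed lines. Colour gives the marker state, marker shape gives the block, and each point carries the array's title; the cyp1a-high arrays lie at 20170.0 or above for cyp1a and below the threshold for cyp19a1b.

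Defining genes of the main larval tissues were present in all 6 arrays. The heart gene myl7 ranged from 550.8 to 1035.5, the liver gene fabp10a from 1865.5 to 4586.3, the pancreatic gene prss1 from 7138 to 11363.5, the fast muscle gene mylpfa from 29153.3 to 31591.4, and the leukocyte gene lyz from 748.9 to 1161.9. The genes vmhc, rho and hbbe1.1 had no probe set under these symbols. Arrays of 1 block correlated with a median r of 0.987, arrays of letter B in different blocks with 0.984, and arrays of different letters with 0.970. Within a letter r ranged from 0.978 to 0.991. The array titled TCDD 3, not among the 6 compared, had the lowest r with each letter C array, at 0.957 to 0.967.

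Across the genome the cyp1a-high arrays differed from the neither-high arrays mostly by higher signals. Of 11622 probe sets tested, which represent 7306 named genes and 2969 probe sets without a single symbol, 215 (1.85%) passed limma's test at an adjusted p under 0.05. Higher signals accounted for 173 of them (1.49%) and lower signals for 42 (0.361%), and with 1 symbol per probe set these were 129 named genes higher and 29 lower. The test compares the 3 pairs on log2(signal + 16), adjusts p-values over all probe sets tested, and gives folds on the same scale, which understates the change of dim probe sets. Each SE below is limma's, which draws a probe set's variance towards a trend over all probe sets. It is therefore not the spread of that gene's own 3 pairs. The median log2 difference was 0.64 for the higher and -0.67 for the lower probe sets, against -0.01 for all tested. Only 20 were higher by a log2 difference of 1 or more, and 7 lower by as much. All 215 had the same sign in the 3 pairs, as had 32.6% of the probe sets tested. The 2 groups' signals did not overlap for 192 of the 215, and for 1238 (10.7%) of all probe sets tested. The count was 59 without the first B pair, 170 without the second B pair and 296 without the C pair. Leaving out the second B pair leaves the arrays that the shared numbers alone would group.

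The largest difference among the tested probe sets was in cyp1c1, a cyp1 monooxygenase gene of the same AHR-induced family. Its signal was 92.6, 98.4 and 118.3 in the neither-high arrays and 2102.8, 3690.4 and 2982.7 in the cyp1a-high arrays. The lowest cyp1a-high value lay far above the highest neither-high value, and the difference was 4.59 (SE 0.13, n = 3 pairs, limma adjusted p = 9.92e-09), or 24.2-fold. Another cyp1c1 probe set differed by 3.99 (SE 0.17), but it passed the intensity filter only because the arrays with high cyp1a read high. The feedback gene tiparp, which encodes a poly(ADP-ribose) polymerase that represses AHR, read 502.6, 484.7 and 465.7 against 1025.3, 958.2 and 1101.4. The groups did not overlap, and tiparp was 2.08-fold higher (log2 1.06, SE 0.10, limma adjusted p = 0.000260). The receptor gene ahr2 read 602.3, 690.8 and 616.6 against 1129.5, 1157.6 and 1108.6, which was 1.76-fold higher (log2 0.82, SE 0.09, limma adjusted p = 0.000870).

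Of 5 tested genes for the receptor and its partners, ahr2 was the 1 that passed, and their median difference was 0.15. This and every later count of a gene list stands against 1.49% of all tested probe sets called higher and 0.361% called lower. The partner gene arnt2 read 111, 59.4 and 104 against 102.9, 46.6 and 86.1, with overlapping groups (log2 -0.20, SE 0.17, limma adjusted p = 0.760). A further receptor gene, ahr1a, fell below the intensity filter, at 6.9, 10.9 and 22.9 against 43.4, 47.8 and 31.8, and was not tested. No probe set carried the symbols cyp1b1, cyp1c2, ahr1b, ahrra, ahrrb or arnt, so these genes were not analysed here. The plot of 8 genes shows the cyp1, receptor and feedback genes beside enzymes and some genes that fell.

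**Figure D2:**
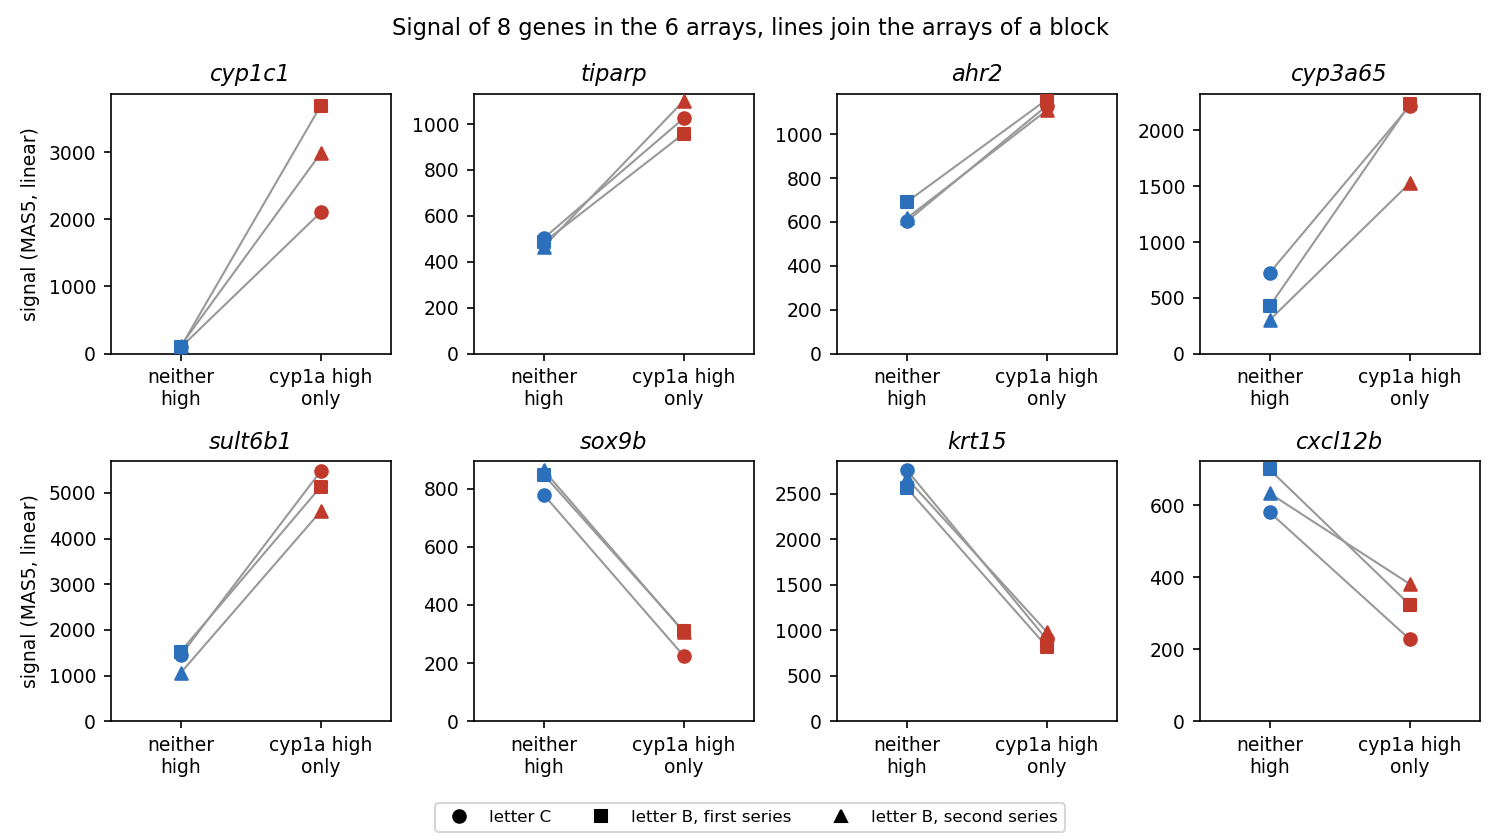
Signal of 8 genes in the 6 arrays on linear axes that start at 0, with the neither-high arrays at left and the cyp1a-high arrays at right. Marker shape gives the block and a line joins the arrays of a block. The 8 genes were picked from those that passed. In each of them all 3 lines run the same way and the 2 groups do not overlap.

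Genes of oxidative metabolism beyond the cyp1 family were higher in a few cases, each well above the spread between pairs. The gene cyp3a65, a CYP3 monooxygenase of gut and liver, read 723.8, 425.9 and 301.7 against 2220.1, 2234.4 and 1527.0, or 4.21-fold higher (log2 2.07, SE 0.13, limma adjusted p = 9.08e-06). A further cyp3a65 probe set differed by 1.78. The neither-high arrays spread more than 2-fold for this gene, yet their highest value was below the lowest cyp1a-high value. The gene cyb5a, whose product cytochrome b5 passes electrons to cytochrome P450 enzymes, read 1892.1, 1736.2 and 1401.5 against 3679.1, 4539.4 and 4332.1 (log2 1.32, SE 0.11, limma adjusted p = 8.36e-05). A carboxylesterase gene, ces2b, was higher by 0.49. One member fell, cyp2k18 of the CYP2 family, at 204.0, 274.8 and 142.6 against 94.9, 146.3 and 80.7. Its groups overlapped, although each pair fell (log2 -0.85, SE 0.14, limma adjusted p = 0.0115). In all, 3 of 26 tested phase I genes were higher and 1 lower, with a median of 0.01. The calls for ces2b and cyp2k18 were lost without the first B pair, and that for ces2b also without the second.

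Conjugating enzymes were higher in 4 of 19 tested cases and lower in none by limma's adjusted p, against 1.49% higher and 0.361% lower of all tested probe sets. The cytosolic sulfotransferase gene sult6b1 read 1440.6, 1525.2 and 1057.9 against 5477.9, 5135.6 and 4599.0. It was 3.78-fold higher with little spread among pairs (log2 1.92, SE 0.08, limma adjusted p = 3.20e-07). The other members were the glutathione transferase genes gstp1.2, gstt1b and gsto2, higher by 0.40, 0.47 and 0.46 on the log2 scale. These 3 calls were lost without the first B pair, and those for gstt1b and gsto2 without the second as well. The median of the list was 0.09, and 8 of its 19 members had differences below 0. None of 4 tested export transporter genes passed limma's adjusted p, and their median was 0.01.

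Genes of the antioxidant programme governed by the transcription factor Nrf2 were higher in 5 of 26 tested cases, by small amounts. The gene nfe2l2a, which encodes Nrf2a, read 969.9, 1238.0 and 993.6 against 1955.7, 1519.2 and 1642.3 (log2 0.67, SE 0.12, limma adjusted p = 0.0145). Genes of glutathione supply were also among them, namely gclm (log2 0.52), the regulatory subunit of its synthesis, and gsr (log2 0.58), glutathione reductase. The quinone reductase gene nqo1, a shared target of AHR and Nrf2 in mammals, read 1808.7, 2056.6 and 2158.6 against 2234.4, 2984.5 and 2617.4. Its difference of 0.37 (SE 0.08, limma adjusted p = 0.0435) did not pass without the first or without the second B pair. The thioredoxin reductase gene txnrd3 was higher by 0.38, and like nfe2l2a it had another tested probe set that did not pass. The calls for gclm and gsr were lost without either B pair, and that for txnrd3 whichever pair was left out. A pair of further probe sets for the peroxiredoxin gene prdx1 passed too, at 0.73 and 0.48, while the third did not. The median of the list was 0.06, and its members ranged from -0.30 to 0.67.

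Immediate early genes formed the list with the most calls. They are transcription factor and signalling genes that cells switch on within minutes of a stimulus. Higher signals passed in 14 of 24 tested genes and lower signals in none, against 1.49% and 0.361% of all tested probe sets. The list's median was 0.56, and 22 of the 24 had differences above 0. The AP-1 gene fosab read 123.6, 161.4 and 283.1 in the neither-high arrays and 373.2, 492.5 and 840.0 in the cyp1a-high arrays. The groups did not overlap, for 2.84-fold (log2 1.51, SE 0.11, limma adjusted p = 3.13e-05). On this probe set the pairs differed by 1.48, 1.52 and 1.52, and on the brightest of the 4 for fosab by 1.1, 1.34 and 2.06. The other 2 ranged from 0.38 to 1.80 and from 1.04 to 1.96 over the pairs, and all 4 passed, by 1.25 to 1.51. The neuronal activity gene npas4a read 209.4, 211.9 and 323.2 against 356.1, 359.7 and 731.5, with a difference of 0.86 (SE 0.12, limma adjusted p = 0.00479). The shear-responsive gene klf2b was higher by 0.82, the AP-1 gene junbb by 0.76, the nuclear receptor gene nr4a1 by 0.75, the phosphatase genes dusp5 and dusp1 by 0.78 and 0.59, and the stress factor gene atf3 by 0.67.

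The remaining members that passed were egr4, ier2a, btg2, ccn2a, ccn1 and egr1, at 0.52 to 0.76. The groups overlapped for egr1, and another tested probe set each for egr1 and ccn1 did not pass. Within blocks the list's median was 0.38 in the C pair, 0.53 in the first B pair and 0.60 in the second B pair. The count depended on the pairs: it was 2 of 24 without the first B pair, 8 without the second B pair and 15 without the C pair, while the median stayed between 0.51 and 0.60.

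Stress and glucocorticoid genes were higher in 10 of 26 tested cases and lower in none, against 1.49% and 0.361% of all tested probe sets, with a median of 0.29. Known targets of the glucocorticoid receptor were among them. The co-chaperone gene fkbp5 read 799.1, 1092.7 and 865.1 against 2136.9, 2325.9 and 1109.0 (log2 0.94, SE 0.15, limma adjusted p = 0.00872). Its highest neither-high value lay just under its lowest cyp1a-high value, and the second B pair differed by 0.35 against 1.4 and 1.08 in the others. The transcription factor gene klf9 was higher by 0.68, tsc22d3 by 0.54, with overlapping groups, and the kinase gene sgk1 by 0.48. The gluconeogenic gene pck1, which encodes phosphoenolpyruvate carboxykinase, read 750.9, 724.7 and 634.4 against 1283.1, 1571.3 and 1289.7, for 1.94-fold (log2 0.96, SE 0.10, limma adjusted p = 0.000436).

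The growth factor binding protein gene igfbp1a was higher by 0.56, and by 0.65 on its other probe set. Chaperone genes of the list that passed were hsp90aa1.2 (0.79 and 0.76 on its probe sets), hsp70.3 (0.65), dnajb1b (0.51) and hspa5 (0.37), the last a chaperone of the endoplasmic reticulum. The receptor gene nr3c1 itself differed by -0.01 (SE 0.09, limma adjusted p = 0.984) and the constitutive chaperone gene hspa8 by 0.08 (SE 0.06, limma adjusted p = 0.725). The count for the list was 3 without the first B pair, 5 without the second B pair and 10 without the C pair.

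Other large rises came from genes outside these programmes. The chemokine gene ccl27a read 32.9, 35.5 and 18.8 against 141.2, 183.4 and 143.5, with no overlap (3.85-fold, log2 1.94, SE 0.19, limma adjusted p = 0.000396). All arrays with low cyp1a read below the level of the intensity filter for ccl27a. It was therefore tested only because the arrays with high cyp1a read high. The unnamed locus LOC567909 read 218.0, 223.5 and 162.4 against 993.2, 1174.1 and 314.6. All 3 cyp1a-high values were above the others, but the second B pair differed by 0.89 and the other pairs by 2.11 and 2.31 (log2 1.77, SE 0.22, limma adjusted p = 0.00150). The small heat shock protein gene hspb6 was higher by 1.03 (SE 0.13). The gene nt5c2l1, a cytosolic nucleotidase gene, was higher by 0.97 (SE 0.13), with 154.6, 158.5 and 138.5 against 301.6, 308.2 and 318.6.

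The connective tissue growth factor paralogue gene ccn2b was higher by 1.11 (SE 0.22), the bHLH gene tcf15, known for its role in somites, by 1.04, the endothelial proteoglycan gene esm1 by 0.99 and si:ch211-237l4.6 by 0.98. The call for ccn2b was lost without the C pair or without the second B pair, and those for tcf15 and esm1 without the first B pair. The matrix metalloproteinase genes mmp9 and mmp13a were higher by 0.92 and 0.86, as 2 of 14 tested genes of the leukocyte list, and both calls were lost without the first B pair, that for mmp13a also without the C pair. The other members of that list did not pass in either direction, and its median was 0.03.

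The largest falls among named genes were those of krt15 and sox9b. The keratin gene krt15 read 2761.4, 2563.6 and 2669.5 in the neither-high arrays and 898.2, 819.7 and 982.0 in the cyp1a-high arrays. Each group varied little, and krt15 fell by 1.55 on the log2 scale (SE 0.08, limma adjusted p = 2.19e-06), or 2.93-fold. The keratin gene krt94 read 1467.9, 1165.9 and 1050.5 against 745.9, 642.9 and 567.8 (log2 -0.89, SE 0.09, limma adjusted p = 0.000436). They were the only 2 of 29 tested skin and keratin genes to pass by limma's adjusted p, and the list's median was -0.03. In a whole larva, fewer cells of a type and less RNA per cell cannot be told apart.

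The transcription factor gene sox9b, which is needed for cartilage and fin development and is known to fall in dioxin-exposed zebrafish, read 778.9, 847.5 and 862.7 against 224.2, 309.2 and 306.7. The groups lay far apart (2.88-fold lower, log2 -1.53, SE 0.11, limma adjusted p = 2.25e-05). The matrix gene hapln1a, which links hyaluronan to proteoglycans, read 945.7, 1067.8 and 993.8 against 387.2, 672.6 and 707.1 (log2 -0.80, SE 0.13, limma adjusted p = 0.0105). A further probe set of it passed at -0.64, another tested one did not, and both calls were lost without the first B pair. No more of the 17 tested cartilage genes passed by limma's adjusted p, and their median was -0.13. The paralogue sox9a fell below the filter and was not tested.

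Both cxcl12 genes, which encode the chemokine ligands that guide migrating cells through Cxcr4, were lower. The gene cxcl12b read 580.8, 699.7 and 633.3 against 227.7, 323.7 and 381.4 (log2 -1.03, SE 0.13, limma adjusted p = 0.00156). The gene cxcl12a read 965.3, 929.2 and 950.7 against 639.4, 490.8 and 606.4 (log2 -0.71, SE 0.10, limma adjusted p = 0.00445). Its other tested probe set differed by -0.38 and did not pass (limma adjusted p = 0.199), and the call on the first was lost without the first B pair. With ccl27a, 3 of 9 tested chemokine genes passed, 1 higher and 2 lower. The plot of pair differences shows the 30 largest changes. Every pair of the cyp19a1b-low arrays lies on 1 side of 0, which was a condition for choosing these genes.

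**Figure D3:**
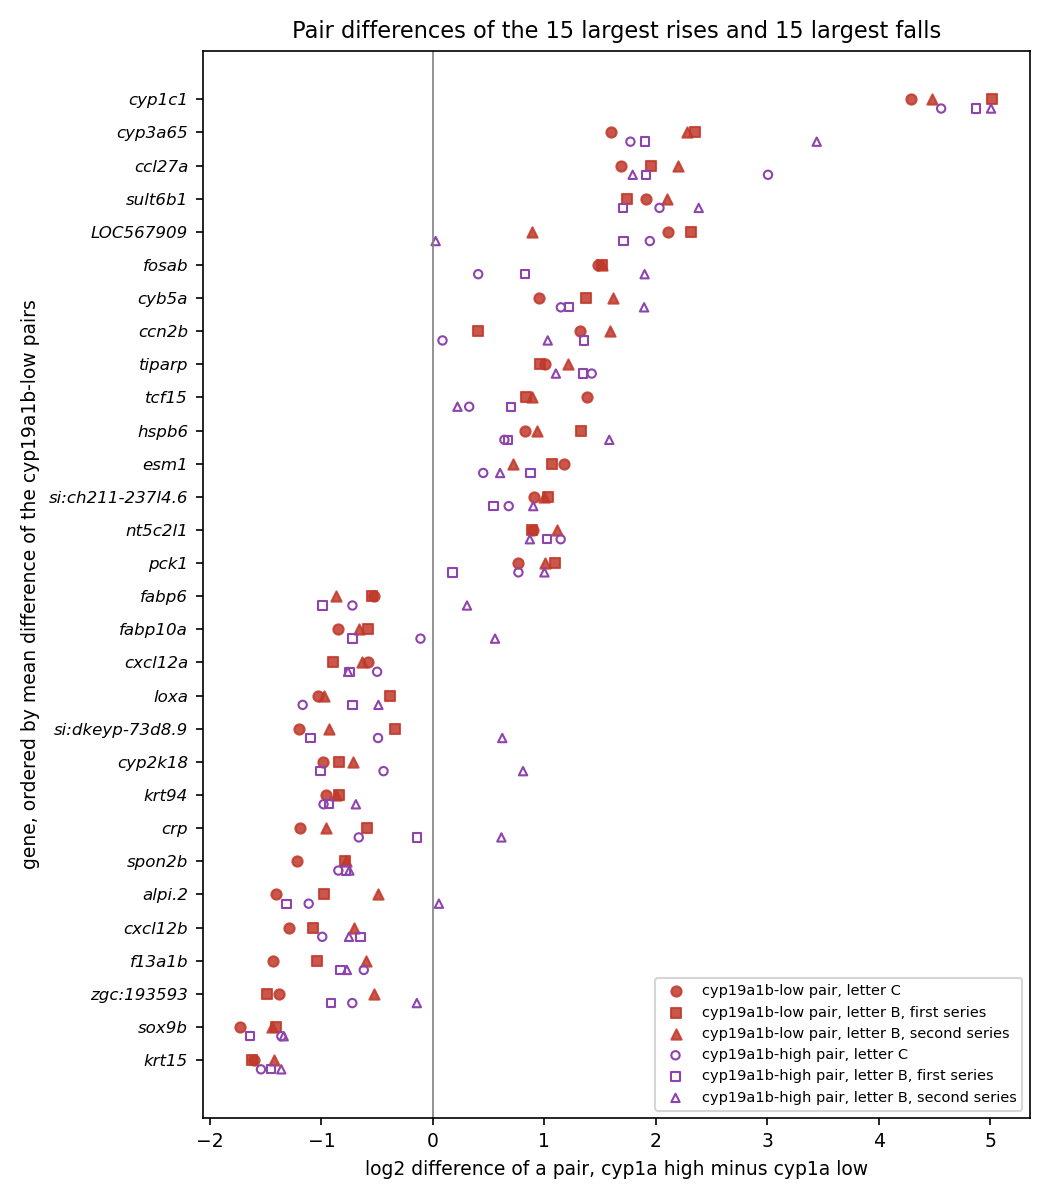
Log2 difference of each pair, cyp1a high minus cyp1a low, for the 15 largest rises and the 15 largest falls, ordered by mean difference. Each gene was ranked by its probe set of smallest p. Filled markers are the 3 pairs compared here and open markers the 3 pairs of the arrays with high cyp19a1b, which played no part in choosing the genes; marker shape gives the block. All open markers of the 15 rises lie above 0, while in 6 of the 15 falls at least 1 open marker lies above 0.

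Further falls, all but that of plvapb among the 15 largest, included the following genes. The gene spon2b, a secreted matrix protein gene, read 855.0, 776.0 and 704.0 against 359.3, 441.5 and 404.0 (log2 -0.93, SE 0.11, limma adjusted p = 0.00167). The collagen crosslinking enzyme gene loxa was lower by 0.80 (log2 -0.80, SE 0.18, limma adjusted p = 0.0453), a call lost whichever pair was left out. The gene f13a1b, which encodes a coagulation factor XIII A subunit, read 398.6, 312.8 and 154.3 against 137.1, 143.9 and 96.1. Its groups did not overlap (log2 -1.03, SE 0.17, limma adjusted p = 0.00809), and a brighter probe set was at -0.58. The call on the first was lost without the first B pair, and that on the brighter one without either B pair. The gene plvapb, of the diaphragms in vessel walls, was lower (log2 -0.57), a call lost without the first B pair. With esm1, it was 1 of 2 genes to pass among 7 tested vessel genes. The gene zgc:193593 was lower too (log2 -1.13, SE 0.15, limma adjusted p = 0.00310), as was si:dkeyp-73d8.9 (log2 -0.82, SE 0.15, limma adjusted p = 0.0145).

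Liver and gut genes showed few calls. The gene fabp10a, for the fatty acid binding protein of liver, read 4586.3, 3411.2 and 2969.6 against 2544.1, 2272.7 and 1865.5 (log2 -0.70, SE 0.08, limma adjusted p = 0.000870). The acute phase gene crp read 750.8, 383.2 and 445.8 against 319.8, 249.4 and 221.2 (log2 -0.91, SE 0.13, limma adjusted p = 0.00450). In both, the groups did not overlap. The other 26 of 28 tested liver genes did not pass, and the list's median was 0.04. Of 14 tested intestinal genes, alpi.2, an intestinal alkaline phosphatase gene, was lower (log2 -0.96, SE 0.15), with 680.7, 684.9 and 335.0 against 247.3, 340.0 and 232.9. The bile acid binding protein gene fabp6 was lower as well (log2 -0.65, SE 0.09), and the peptide transporter gene slc15a1b was higher by 0.72. For alpi.2 and fabp6 the groups overlapped, and the calls for alpi.2 and slc15a1b were lost without the first B pair, that for slc15a1b also without the second.

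In the clock list, 3 of 21 tested genes were higher (tefa, nfil3-6 and bhlhe40, by 0.49, 0.63 and 0.39, each call lost without the first B pair), and 19 of the 21 had differences above 0. Another tested tefa probe set, at 0.30, did not pass (limma adjusted p = 0.448). The list's median was 0.20, and by pair it was 0.27, 0.50 and 0.01. The light-responsive gene per2 read 202.1, 168.1 and 236.7 against 1116.1, 978.1 and 172.8 on its brightest probe set. The first 2 pairs differed by 2.38 and 2.43 and the second B pair by -0.42, and the probe set did not pass (limma adjusted p = 0.145). A dimmer per2 probe set was higher by 0.89 (limma adjusted p = 0.0392), with overlapping groups, a call lost without the C pair or without the first B pair. Its mean over the arrays with low cyp1a lay below the level of the intensity filter. It was therefore tested only because the arrays with high cyp1a read high.

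Among 25 tested retina genes the photoreceptor gene guca1c was higher (log2 0.67), while rcvrn2 and rlbp1a, of phototransduction and of the visual cycle, were lower (log2 -0.58 and -0.44), with a list median of -0.17. The other tested probe set of rcvrn2 did not pass, the call for guca1c was lost without the first B pair, and that for rlbp1a whichever pair was left out. Of 45 tested DNA replication and cell cycle genes, 38 had differences below 0, with a median of -0.08, and none passed limma's adjusted p. None of 24 fast muscle, 17 exocrine pancreas and 7 heart genes passed either, with medians of -0.03, -0.11 and -0.06. The heart gene myl7 differed by -0.38 (limma adjusted p = 0.156). Of 12 red cell genes, nt5c2l1 alone passed. Of 4 tested genes of the estrogen list, igfbp1a was higher and f13a1b lower, both described above. The plot of the gene lists gives these counts together.

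**Figure D4:**
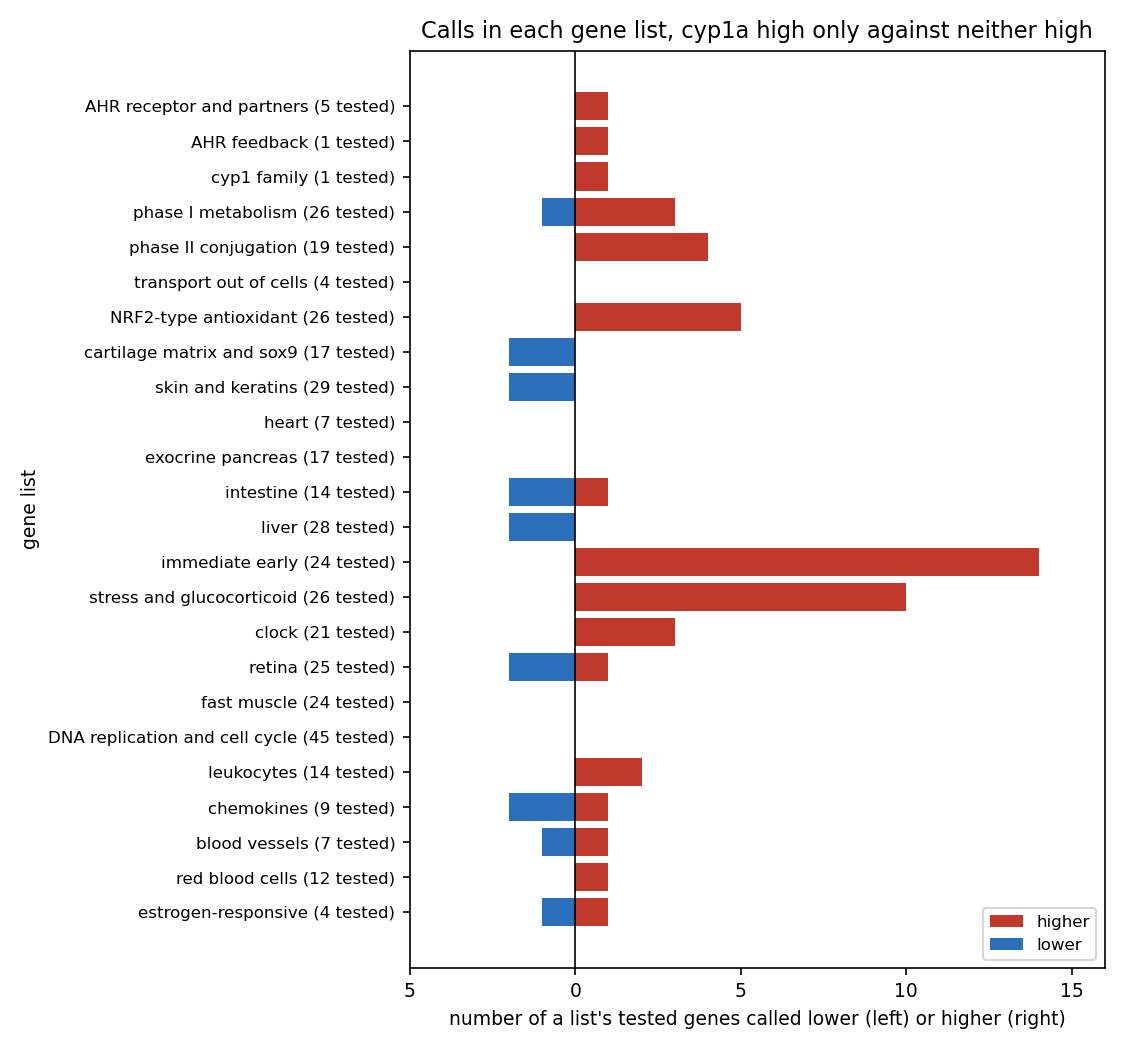
Number of tested genes called lower, to the left of 0, or higher, to the right, in each of 24 gene lists, with the number tested after the list's name. The immediate early list has 14 higher and the stress and glucocorticoid list 10 higher, and 4 lists have none in either direction besides the export transporter list.

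Arrays that the comparison did not use gave a further set of the same contrast. This set shares no array with the first but comes from the same 3 blocks. Some of its arrays also share a number, so the labels do not show that it is independent. In the 6 arrays with high cyp19a1b, cyp1a was high in those titled E2+TCDD 1, E2 3 and E2+TCDD 3 and low in those titled E2 1, DMSO 3 and TCDD 3, again as 1 of each in every block. Fitted in the same way, 104 (0.895%) of the 11622 probe sets passed, 77 higher and 27 lower. Both sets of arrays called 84 probe sets, all in the same direction, with 69 higher and 15 lower. These were 39.1% of the 215 and 80.8% of the 104. Of the 215, 214 had the same direction of mean difference in the cyp19a1b-high arrays and 181 had it in all 3 of their pairs. Over all tested probe sets these shares were 60.0% and 21.5%. The median difference of the 173 higher probe sets was 0.64 in the arrays that called them and 0.50 in the other 6, and that of the 42 lower ones was -0.67 and -0.49.

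**Figure D5:**
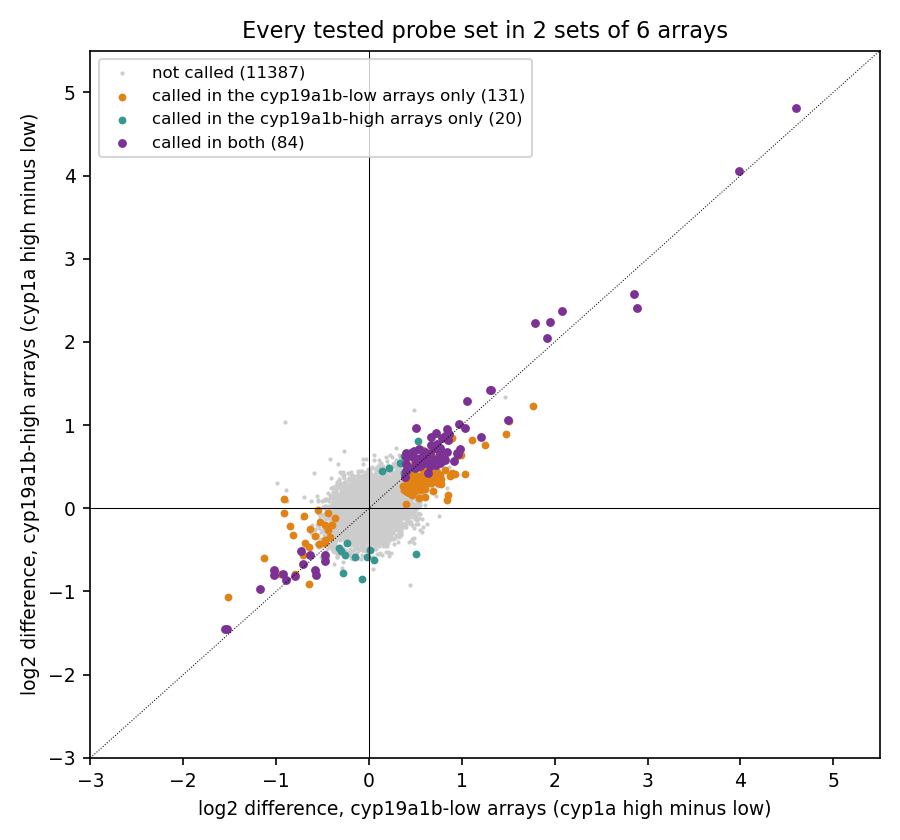
Log2 difference, cyp1a high minus low, of each tested probe set in the 6 arrays with low cyp19a1b (horizontal) and the 6 with high cyp19a1b (vertical), with equality dotted. Colours mark 84 probe sets called in both, 131 in the low arrays only and 20 in the high arrays only; each of the 84 lies above 0 on both axes or below 0 on both.

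Many of the largest changes passed in both sets. In the cyp19a1b-high arrays, cyp1c1 was higher by 4.81, cyp3a65 by 2.37, ccl27a by 2.24, sult6b1 by 2.04, cyb5a by 1.42 and tiparp by 1.29, each with a limma adjusted p of 0.00125 or less. The falls of krt15 and sox9b were 1.45 and 1.45 there (log2 -1.45 and -1.45), and those of cxcl12b and krt94 were log2 -0.80 and -0.87. Of the 15 largest rises 10 passed there too, and of the 15 largest falls 7. Among those that did not pass were LOC567909 (1.23, limma adjusted p = 0.0759), the fosab probe set ranked here (1.04, limma adjusted p = 0.0524) and zgc:193593 (log2 -0.59, limma adjusted p = 0.0599). Further from passing were tcf15 (0.42, limma adjusted p = 0.408), ccn2b (0.82, limma adjusted p = 0.223) and esm1 (0.64, limma adjusted p = 0.160). So were si:dkeyp-73d8.9 (log2 -0.32, limma adjusted p = 0.718) and alpi.2 (log2 -0.79, limma adjusted p = 0.141). The gene loxa did not pass either (log2 -0.79, limma adjusted p = 0.0867), nor did crp, fabp10a, fabp6 and cyp2k18, described below. The brightest fosab probe set did pass there (1.07, limma adjusted p = 0.0259).

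Fewer members of some lists passed there, and several other genes differed less and did not pass. The immediate early list had 3 of 24 higher and a median of 0.29, and the stress and glucocorticoid list had 5 of 26 and 0.23. The receptor gene ahr2 differed by 0.46 (limma adjusted p = 0.339), with -0.15, 0.65 and 0.87 in the pairs. The liver genes crp and fabp10a differed by -0.06 and -0.09, the gut gene fabp6 by -0.47, and cyp2k18 by -0.21. All 4 of these fell in the C and the first B pair and were higher in the second, TCDD 3 with E2+TCDD 3, by 0.62, 0.56, 0.31 and 0.81. Without that pair their means were -0.40, -0.41, -0.86 and -0.73. For each of these genes the array titled TCDD 3 read lowest of the 6, at 150.5, 1155.4, 878.8 and 61.6. The difference between both effects was tested directly in a fit to all 12 arrays and passed for no probe set by limma's adjusted p, with 429 at an unadjusted p under 0.05, 25 of them among the 215. For crp and fabp10a the unadjusted p of the difference between both effects was 0.0147 and 0.0177 by limma, and the adjusted p was 0.998 for both. A smaller value in the cyp19a1b-high arrays is therefore not shown to differ.

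Each pair was also compared with calls made from the other pairs alone. Of all tested probe sets, 32.6% had the same sign in the 3 pairs. That is a stricter measure than 1 pair agreeing with the mean of the others. The share of all tested probe sets agreeing in each split was not computed, so the counts below have no background to be set against. The C and first B pairs carry the same numbers, so agreement between them may be technical. Calls from the B pairs gave 214 higher probe sets, of which 201 were also higher in the C pair (median 0.61 in the B pairs and 0.51 in the C pair), and 82 lower, of which 67 were lower there. Calls from the C pair and the second B pair gave 47 higher, of which 46 were higher in the first B pair, and 12 lower, all of which were lower there. Calls from the C pair and the first B pair gave 124 higher, of which 118 were higher in the second B pair, and 46 lower, of which 41 were lower there. In the second B pair, where both titles contain TCDD, the median difference of these probe sets was 0.55 and -0.46, against -0.01 over all tested.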

How the data were processed

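The authors deposited 1 intensity per probe set, the MAS5 signal on a linear scale. The submitters' processing notes name Affymetrix Expression Console, without a version. Trimmed means, with 2% removed at either end, lay between 500.121 and 500.137 in the 12 arrays, so the values were used as deposited. Of 15617 probe sets, 115 controls and the 8 of the marker clusters were left out, as were those whose mean log2(signal + 16) over the 12 arrays fell under the 25th percentile (6.37). This filter took no account of marker state, but some dim probe sets passed it only because the arrays with high cyp1a read high. Those named here include ccl27a, ccn2b, esm1 and the dimmer tested probe sets of cyp1c1 and per2, and their calls carry that limit. Symbols were read from the platform annotation and updated through RefSeq by Entrez ID (10718 matched, 1 symbol changed): 10802 probe sets had 1 symbol, 135 several and 4680 none. No genome build is named, so no positions are given. Promoter sequences were not used here.

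Tests used limma 3.58.1 in R 4.3.3: lmFit and eBayes with a variance trend, marker state plus 3 blocks, two-sided, at a p under 0.05 after Benjamini-Hochberg adjustment over every tested probe set. Residual degrees of freedom were 2 and prior ones 9.31. On simulated data for this comparison with known changes the fit was checked before use. Named genes are the 15 largest rises and falls that passed with 1 symbol and 1 sign in all 3 pairs, a fixed set of AHR genes and cyp19a1b, and list members that passed. For the 15 largest, each gene was ranked by its probe set of smallest p. By this rule hapln1a was ranked at -0.64, not at -0.80, and is not among the 15. Genes named beside these with values that did not pass (per2, nr3c1, hspa8, myl7, sox9a) were chosen after their values were seen. The 24 lists hold 746 genes, of which 464 had a probe set and 403 were tested, by their brightest probe set. The arrays, the markers and the lists were chosen with earlier results of these data known, and lists are described by counts and medians with no test of their own. The blocks pair the arrays. Deviations from the group means correlated by 0.54, 0.36 and 0.41 within the C, first B and second B pair. Between blocks they correlated by -0.41 to 0.15. Deviations from a group mean cancel out over the blocks, which pushes the values between blocks down. Array values carry no counts, so the number of arrays limits the precision. Alternatives were pseudocounts, filters, normalisations, blocks, the variance trend, all 12 arrays, and leaving out each pair.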

Additional observations from a re-analysis of the deposited data

How the results depend on the processing

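The 215 probe sets called became 142 with the title replicate number as a replicate block (which here equals the letter), 27 with no block, 19 without the variance trend, and 59 to 296 with a pair left out. They numbered 158 to 236 under the other alternatives (pseudocounts 1 and 64, no filter, a filter at the 50th percentile, quantile normalisation, median centring, all 12 arrays). The 104 calls of the cyp19a1b-high arrays became 61 without the filter, 159 after median centring, 12 with no block, 12 without the variance trend and 112 to 146 with a pair left out. The test of the difference between both sets gave 1 call with a pseudocount of 64, and 0 without the filter, where unadjusted p was under 0.05 for 434 and 610 probe sets. The 84 shared calls became 181 when shared meant the same sign in all 3 pairs. With all probe sets of a gene, the cyp1 list had 2 calls and the estrogen list 4. With a pair left out, an alternative chosen after seeing the data, the immediate early list had 2 to 15 calls and the stress and glucocorticoid list 3 to 10. The causes of these changes were not tested.

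None of the 86 tested probe sets chosen by the naming rule changed direction under these alternatives. The genes nr3c1, hspa8, myl7 and the brightest per2 probe set, named afterwards, are not part of this count. Of 85 called probe sets named, 33 kept the call with each pair left out. The call was lost in 50 without the first B pair, in 25 without the second and in 6 without the C pair, and in 22 with the replicate block, 70 with no block and 71 without the trend. With 3 pairs, small differences rest on the shared variance estimate, and the filter kept dim probe sets such as ahr1a out of the main fit.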

Other observations

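Several called probe sets had no single gene symbol in the annotation used. The largest difference was in a probe set that read 21.7, 16.8 and 17.2 in the neither-high arrays and 214.2, 241.3 and 263.7 in the cyp1a-high arrays. Its difference was 2.89 (SE 0.18, limma adjusted p = 9.08e-06), and 2.41 in the cyp19a1b-high arrays. Its neither-high signals lay below the level of the intensity filter. A further unnamed probe set read 76.2, 43.6 and 52.4 against 495.4, 442.7 and 588.5, a difference of 2.85 (SE 0.16, limma adjusted p = 2.22e-06), and 2.57 in the cyp19a1b-high arrays. Its signals of 43.6 and 52.4 lay below that level as well. Both probe sets may therefore have been tested only because the arrays with high cyp1a read high. Both differences were larger than that of every tested named gene but cyp1c1. Among the others of small p, 2 were higher by 1.3 and 1.21, and 1 was lower (log2 -1.17). These 5 also passed in the cyp19a1b-high arrays, and they were chosen after their values were seen.

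Genes of the immediate early group did not vary alike over the blocks of the cyp19a1b-high arrays. There npas4a differed by 0.04, 0.24 and 2.17 and egr4 by -0.04, 0.17 and 1.81 in the letter C, first and second letter B pairs. In the second, the array titled TCDD 3 read low. Its npas4a signal was 91.6, against 464.6 and 335.2 in those titled E2 1 and DMSO 3. For egr4 the values were 91 against 326.2 and 257.3. LOC567909 ran the other way, at 1.95, 1.71 and 0.03. No test of these patterns was run.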
